A study of Homo sapiens with 6 samples.

Results

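Centrosome and cilium genes were taken as all symbols that start with CEP, IFT, BBS or TUBGCP followed by a number. They numbered 58 of 10779 genes, with 32 CEP, 14 IFT, 7 BBS and 5 TUBGCP symbols. The rule used names only and no measured value. Ribosome profiling, which sequences the stretches of mRNA that ribosomes shield from nuclease (RPFs), was carried out in HEK293 cells, a line from human embryonic kidney. All 6 libraries are labelled as cells given a control siRNA, 3 of RPFs and 3 of total RNA from the same lysates, so the series holds 1 condition and no treated group. The cells received cycloheximide before lysis, which arrests elongating ribosomes. No source used here says whether the replicates were separate cultures, so p-values measure the spread between these replicates only.

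The centrosome consists of a pair of centrioles in a matrix that nucleates microtubules through the gamma-tubulin ring complex, whose subunits are the TUBGCP proteins. The mother centriole carries appendages with which it docks at the plasma membrane to template the primary cilium, a sensory organelle. Intraflagellar transport (IFT) trains move cargo along the cilium, IFT-B mainly towards the tip with kinesin and IFT-A back with dynein, and the BBSome is a membrane coat that carries receptors out of the cilium on these trains. Loss of many of these proteins causes ciliopathies such as Bardet-Biedl and Joubert syndromes. HEK293 cells can form primary cilia, and none of the 5 motile cilium genes looked up (FOXJ1, DNAH5, DNAI1, SPAG6, RSPH1) was in either table. Of 7 genes known for the HEK293 line 5 were in the translational efficiency table and 6 in the occupancy table, with PAX2 in neither, and 0 of 8 genes of other tissues were in either.

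Both kinds of value are deposited per gene. Translational efficiency (TE) is the linear ratio of RPFs to total RNA in each of the 3 replicates, for 8121 genes including 45 members. Normalised ribosome occupancy is the number of in-frame RPFs at each codon, scaled to library size and divided by the mRNA's abundance in TPM, for 9570 transcripts including 51 members, with the replicates combined by the authors. The tables share 38 members. CEP57L1, CEP78, CEP85, CEP112, CEP350, IFT52 and IFT74 were in the TE table only. BBS9, BBS12, CEP70, CEP83, CEP120, CEP126, CEP128, CEP170, CEP170B, CEP192, IFT43, IFT80 and TUBGCP5 were in the occupancy table only. Low occupancy values are sums of whole multiples of the worth of 1 read in each library, and in the members all 22768 values above 0 could be written back as whole reads of the 3 libraries. These came to 127091 in-frame reads. The number in the CDS ran from 143 in CEP126 to 9510 in CEP170, with a median of 1657 against an estimated 1803 over all transcripts. For each gene the libraries are ordered from the smallest to the largest worth of 1 read. They are not matched to the replicate numbers, so the first library need not be the same for every gene. Depth per library is not given in the TE table.

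The start codons of the members at both ends of the TE range are shown first, since initiation there sets which frame ribosomes enter. Sequences were read from GENCODE transcripts on GRCh37 that have the same CDS length. Each line gives 12 bases before the start codon, the start codon in capitals and the 3 bases after it. The first 5 are the members with the highest TE and the other 4 are among the 5 with the lowest TE that have a matched transcript.
BBS5: gccttgttcaccATGtcg
CEP55: accatttcagagATGtct
CEP135: ttagaagacgagATGact
TUBGCP3: ctccgggcgaggATGgcg
CEP89: cgcgctgcaaggATGctc
IFT122: agggaagccgtgATGagg
BBS4: ctgacttatataATGctg
CEP57: gcaggctgaaagATGgcg
IFT46: cctaacaaggctATGgct

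The start codon of BBS5 lies at chr2:170336064-170336066 on the plus strand in exon 1. All 9 have an A or G at the third base before the ATG, as in the consensus for efficient initiation. A G directly after the ATG, the other consensus base, stands in TUBGCP3 among the 5 with high TE and in CEP57 and IFT46 among the 4 with low TE. Over all matched members 44 of 50 (88%) had the purine, against 86.0% of 9082 matched transcripts, and 22 (44%) had the G, against 53.2%. An ATG anywhere in the matched 5′UTR was present in 26 members (52%) and in 43.2% of all matched transcripts. In the occupancy table the median 5′UTR was 78 codons in the members and 56 over all transcripts. The part of 5′UTR length in these shares was not tested. The BBS4 start codon, at chr15:73016926-73016928 on the plus strand, lies in exon 7 of its transcript, and the reads upstream of it are described further on.

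TE of the centrosome and cilium genes was mostly below that of other mRNAs. Their median was 0.272, 0.250 and 0.296 in replicates 1, 2 and 3, against 0.382, 0.380 and 0.388 over all genes. Each gene was tested against the median of all genes with limma on log2(TE + 0.01), so fold changes of low genes are understated. By this test 29 of 45 members were lower (64.4%), where 44.6% of all genes were, and 11 were higher (24.4%), where 44.7% of all genes were. The other 5 did not pass the threshold. In 30 members all 3 replicates lay below the median of their replicate, and in 11 all 3 lay above it. The same was not counted over all genes, so these 2 counts only describe how alike the replicates of the members were. The quartiles of the members were 0.189 and 0.447, against 0.198 and 0.825 over all genes, so the lower quartiles were close and the upper ones apart. Each lysate pools a whole culture, so a lower TE in all cells and in only some of them cannot be told apart.

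Members have long coding sequences, and over the whole table TE was lower for longer ones. The median CDS was 758 codons, from 133 in IFT20 to 2602 in CEP295, against 448 over all transcripts. The Spearman coefficient of TE with CDS length was -0.26 over 6912 genes and -0.10 over the 38 members in both tables, given as a description because genes share libraries and normalisation. Among 2232 genes with a CDS between the members' quartiles, 499 and 1130 codons, the median TE was 0.327, and the 16 members in that range had a median of 0.327. In that range the medians were thus alike, and 51.3% of its genes were called lower and 37.2% higher. The part of CDS length in the members' low TE was not tested further.

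**Figure D1:**
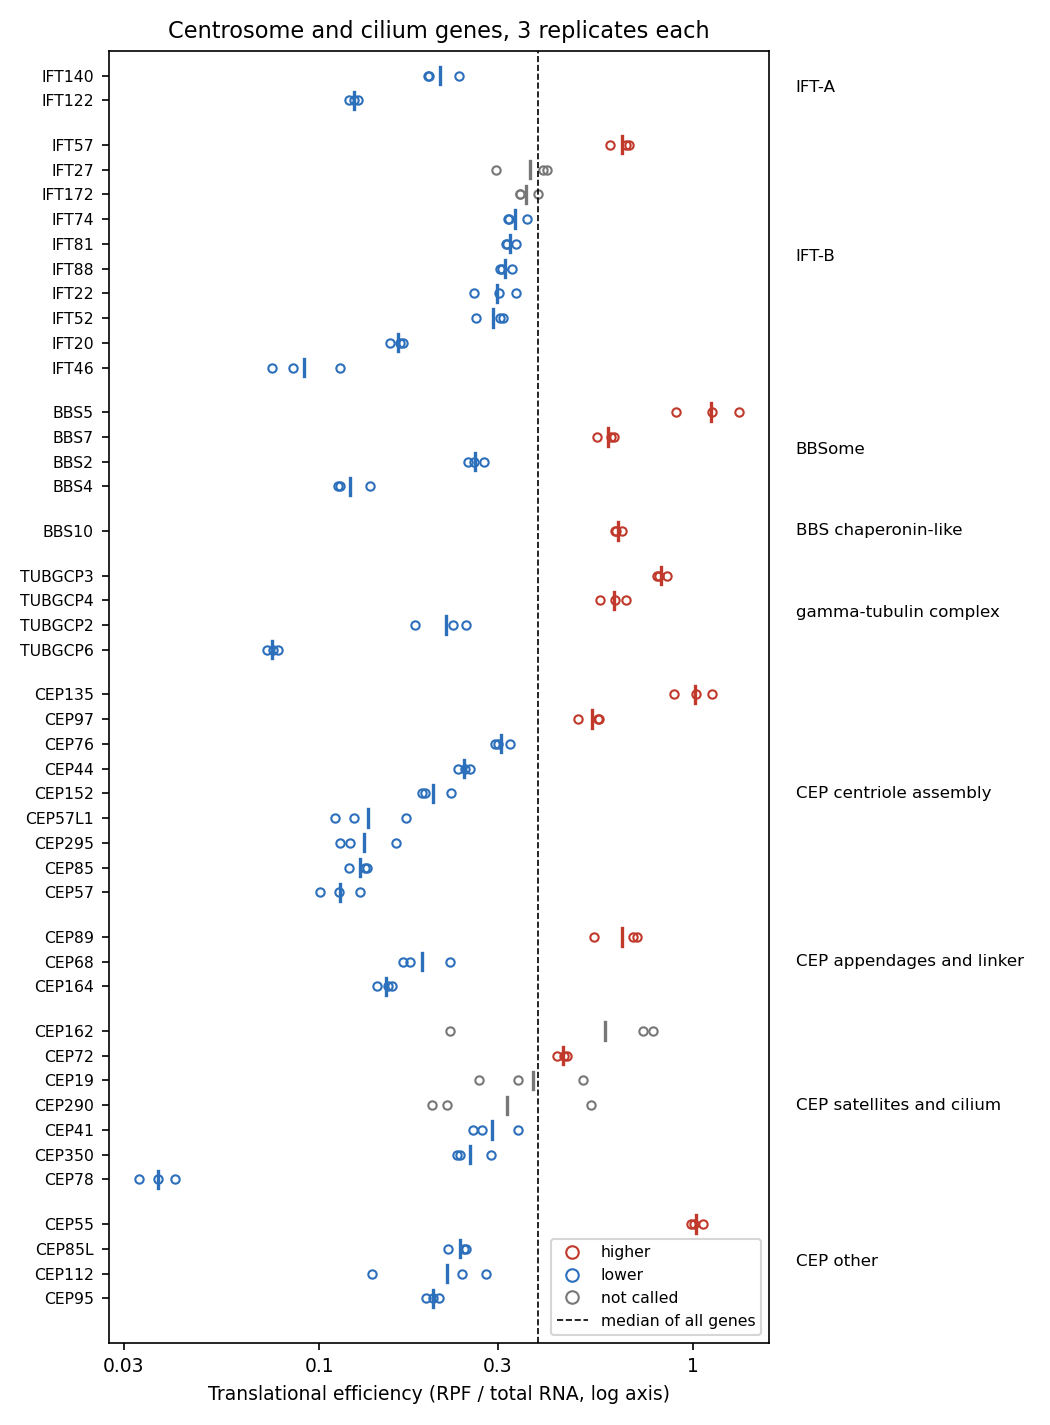
TE of the members, 1 left out, on a log axis, with the 3 replicates as circles, their mean as a bar and colour for the call against the median of all genes (dashed line). Most families have members on both sides of the line, and CEP162 and CEP290 have 1 replicate far from the others.

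The gamma-tubulin ring complex had members at both ends of the range. TUBGCP3, which with TUBGCP2 forms the small complex that binds gamma-tubulin, had a TE of 0.848, 0.809 and 0.799 in replicates 1, 2 and 3, 1.08 ± 0.05 (SE) above the median on the log2 scale (limma adjusted p = 1.74e-05). Its partner TUBGCP2 had 0.247, 0.180 and 0.228 and was called lower. TUBGCP4, a subunit of the larger ring complex, had 0.659, 0.616 and 0.561 and was called higher. The other large-ring subunit in the table, TUBGCP6, had 0.0723, 0.0749 and 0.0773, the second lowest of all members and -2.21 ± 0.05 (SE) from the median on the log2 scale (limma adjusted p = 2.14e-06). No replicate of TUBGCP3 or TUBGCP4 overlapped any of TUBGCP2 or TUBGCP6, so proteins of 1 complex came from mRNAs whose mean TE ran from 0.0749 to 0.819.

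The BBSome was split in the same way. BBS5, the subunit with lipid-binding domains, had the highest TE of all members at 0.897, 1.12 and 1.33, with wide spacing between replicates but all above the median. BBS7 had 0.602, 0.552 and 0.613 and was also called higher. BBS2, which pairs with BBS7, had 0.275, 0.250 and 0.259 and was called lower. BBS4 had 0.114, 0.112 and 0.136, among the 5 lowest members. BBS10, a chaperonin-like protein needed to assemble the BBSome, had 0.617, 0.620 and 0.646 and was called higher, with little spread between replicates.

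In the IFT-B train 7 of 10 members were called lower, 1 higher and 2 neither, against 44.6% lower and 44.7% higher over all genes. IFT57 was the only 1 called higher in this family, at 0.659, 0.597 and 0.671. IFT46 was the lowest at 0.0747, 0.0850 and 0.113. Of the others called lower, IFT52, IFT22, IFT88, IFT81 and IFT74 had means between 0.292 and 0.334, and IFT20 had a mean of 0.162. The call of IFT74 was lost without replicate 2 and without replicate 3. IFT172 and IFT27, the latter a small GTPase that links the train to the BBSome, did not pass the test, with means of 0.357 and 0.366, and IFT172 was called lower when genes were centred on the mean. Both IFT-A members were called lower, IFT140 at 0.197, 0.195 and 0.237 and IFT122 at 0.127, 0.120 and 0.124, and their replicates did not overlap.

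Among CEP proteins of centriole assembly 7 of 9 were called lower and 2 higher, against 44.6% lower and 44.7% higher over all genes. CEP135, a component of the centriole wall next to the cartwheel, was the highest at 1.12, 1.02 and 0.885. CEP97, which with CCP110 caps centrioles and blocks cilium formation, was the other called higher, at 0.536 ± 0.0376 (SD, n = 3). CEP57, a protein of the inner pericentriolar matrix, was the lowest at 0.129, 0.10 and 0.113. CEP152, which recruits the duplication kinase PLK4, had 0.202 ± 0.0202 (SD, n = 3), and CEP295, needed to turn new centrioles into centrosomes, had 0.131 ± 0.0251 (SD, n = 3). CEP57L1, the paralog of CEP57, had 0.135 ± 0.0316 (SD, n = 3), and its replicates overlapped those of CEP57.

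The appendage and linker proteins differed from each other. CEP89, a protein of the distal appendages, had 0.688, 0.542 and 0.705 and was called higher. CEP164, also of the distal appendages and needed for docking, had 0.153, 0.142 and 0.157 and was called lower. CEP68, a component of the linker between centrioles, had 0.174, 0.167 and 0.224 and was called lower too. No replicate of CEP89 overlapped those of either of the others.

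The satellite and cilium group held the lowest member and 3 of the 5 members that did not pass the test. CEP78, a regulator of cilium formation on the mother centriole, had 0.0410, 0.0328 and 0.0369. It ranked 8095 of 8121 genes in mean TE, -3.07 ± 0.07 (SE) from the median on the log2 scale (limma adjusted p = 2.00e-06). CEP350 had 0.287, 0.237 and 0.233 and CEP41 had 0.272, 0.257 and 0.340, and both were called lower. CEP72, a satellite protein, was just above the median at 0.460, 0.450 and 0.431 and was called higher, by 0.22 ± 0.05 (SE) on the log2 scale (limma adjusted p = 0.0101). Leaving out replicate 2 or centring on the mean of all genes ended that call.

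In 3 members of this group the spread between replicates exceeded the distance from the median. CEP162, of the distal centriole and ciliary base, had 0.734, 0.224 and 0.778, and CEP290, the transition zone protein, had 0.533, 0.20 and 0.219. In CEP162 replicate 2 was the low 1 and without it the gene was called higher, whereas in CEP290 replicate 1 was the high 1 and without it the gene was called lower. CEP19 had 0.267, 0.339 and 0.508. It was called lower without replicate 3, and its difference turned to 0.11 on the log2 scale, uncalled, without replicate 1. The median CV between replicates was 8.01% over the 45 members and 7.27% over all genes. It was 58.8% in CEP290, 53.2% in CEP162 and 33.4% in CEP19, and CEP112, described next, had 33.2%.

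The remaining CEP proteins had a single high member. CEP55, which acts at the midbody in the last step of cell division, had 1.06, 0.984 and 1.01, the second highest of all members, 1.38 ± 0.05 (SE) above the median on the log2 scale (limma adjusted p = 7.96e-06). CEP85L had 0.244, 0.221 and 0.247, CEP95 had 0.192, 0.209 and 0.202 and CEP112 had 0.240, 0.138 and 0.278, all called lower. The replicates of CEP112 spanned those of the other two and none reached those of CEP55.

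**Figure D2:**
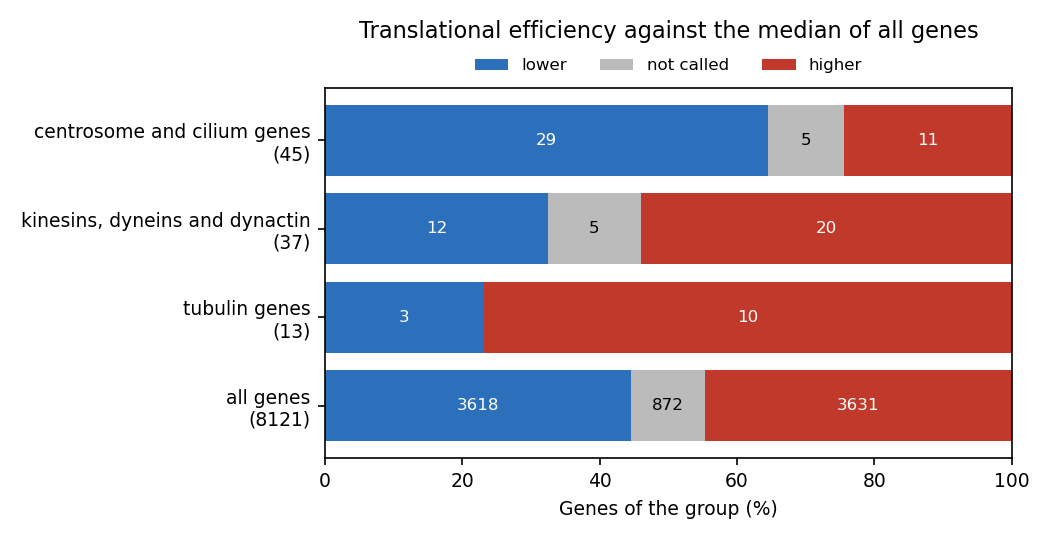
Share of genes called lower, not called and higher than the median of all genes in TE, with the number of genes printed in each bar, for the members, motor genes, tubulin genes and all genes. The members have the largest share called lower of the 4 groups, 29 of 45.

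Genes that work beside the members were read in the same fit. Of 74 other centrosome and cilium genes 60 were in the TE table, 33 lower, 17 higher and 10 neither. Over all genes 44.6% were lower and 44.7% higher, and the counts of each list below stand beside these shares. The median of the 60 was 0.294, close to the 0.292 of the members. The transition zone list, with only 7 of its 15 genes in the TE table, had the lowest median, 0.156. Of these 7, 6 were lower and 0 higher by limma, and 0 were higher at an unadjusted p under 0.05 as well. In that list RPGRIP1L was the highest at 0.276, 0.343 and 0.361 and TCTN3 the lowest at 0.0527, 0.0652 and 0.0615.

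Of the centriole duplication list 7 of 11 were lower and 4 higher. SASS6, the cartwheel scaffold, had 2.07, 1.75 and 1.88 and PLK4, the kinase that starts duplication, had 0.0439, 0.0512 and 0.0483, so the highest and the lowest of that list act in the same step. Of the augmin complex, which branches microtubules in the spindle, 5 of 8 were lower and 2 higher, from HAUS4 at 0.0770, 0.0676 and 0.0988 to HAUS6 at 0.810, 0.729 and 0.747. Of the pericentriolar matrix and satellite list 5 of 7 were lower and 1 higher, from ODF2 at 0.0656, 0.0526 and 0.0536 to SSX2IP at 0.401, 0.435 and 0.445.

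The IFT motors lay nearer the median, with 3 of 8 lower and 1 higher. KIF3A, a subunit of the anterograde kinesin, was the highest at 0.477, 0.462 and 0.470, and WDR34, an intermediate chain of the retrograde dynein, was the lowest at 0.0919, 0.0982 and 0.0994. Of the subunits of the same complexes that are named otherwise 9 of 19 were higher and 7 lower. The highest was MZT1, a very small protein of the gamma-tubulin ring complex, at 15.7, 13.9 and 14.1, and the lowest was the BBSome subunit TTC8 at 0.116, 0.105 and 0.153. Pairs of close paralogs in this list, TTC30A with TTC30B, TUBG1 with TUBG2 and MZT2A with MZT2B, may share reads and are uncertain.

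Kinesins, dyneins and dynactin, which move along the microtubules that centrosomes organise, had a median TE of 0.451 with 12 of 37 lower and 20 higher. The tubulin genes had a median of 1.95 with 3 of 13 lower and 10 higher. Over all genes 44.6% were lower and 44.7% higher. The difference of these 2 groups from the members is given as counts and was not tested.

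The occupancy of the coding sequence, which is per codon and so comparable between genes of different length, was nearer to that of other mRNAs than TE was. The median over the 51 members was 0.0399 against 0.0450 over all transcripts, and 31 members lay below the median of all. The worth of 1 read also gives the mRNA level of a transcript, and this level relative to the median of all transcripts had a median of 0.681 over the members. The mRNAs were thus less abundant than most in the table. Since a lysate pools a whole culture, fewer cells with an mRNA and less of it per cell cannot be told apart. CDS occupancy has no replicate error, since the authors combined the replicates.

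CEP41, linked to glutamylation of ciliary tubulin, had an mRNA level of 0.217 relative to the median of all transcripts. Its CDS occupancy was the highest at 0.198, from 1429 reads. The small GTPase IFT22 had 0.106, TUBGCP4 0.0914, IFT43 0.0813 and CEP44 0.0768. The lowest was CEP170B at 0.00578, from 319 reads, then CEP295 at 0.0105, TUBGCP6 at 0.0119, CEP164 at 0.0122 and IFT80, an IFT-B subunit, at 0.0160. All 3 of these low genes that have a TE, CEP295, TUBGCP6 and CEP164, were called lower there. CEP170 at 0.0581 is uncertain, because 74.2% of its CDS 30-mers also occur in the pseudogene CEP170P1, and 13.7% of those of IFT122 occur in IFT122P2.

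TE and CDS occupancy did not order the members alike. The Spearman coefficient was 0.42 over the 38 members in both tables and 0.69 over 6912 genes, a description in which the points share libraries and RPFs. Both values were below the median of all genes in 15 members and both above it in 7. TE was below and occupancy above in 11, and the reverse held in 5. This split was not counted over all genes, so it describes the members only. CEP41 stood at percentile 95.0 of all transcripts in occupancy and 38.6 of all genes in TE, the widest gap in that direction. CEP72 had the widest gap in the other, at percentile 14.5 in occupancy and 55.8 in TE. Occupancy is per transcript and in frame, while no source used here says which reads or region TE was computed from. The part of isoforms or frames in these gaps was not tested.

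**Figure D3:**
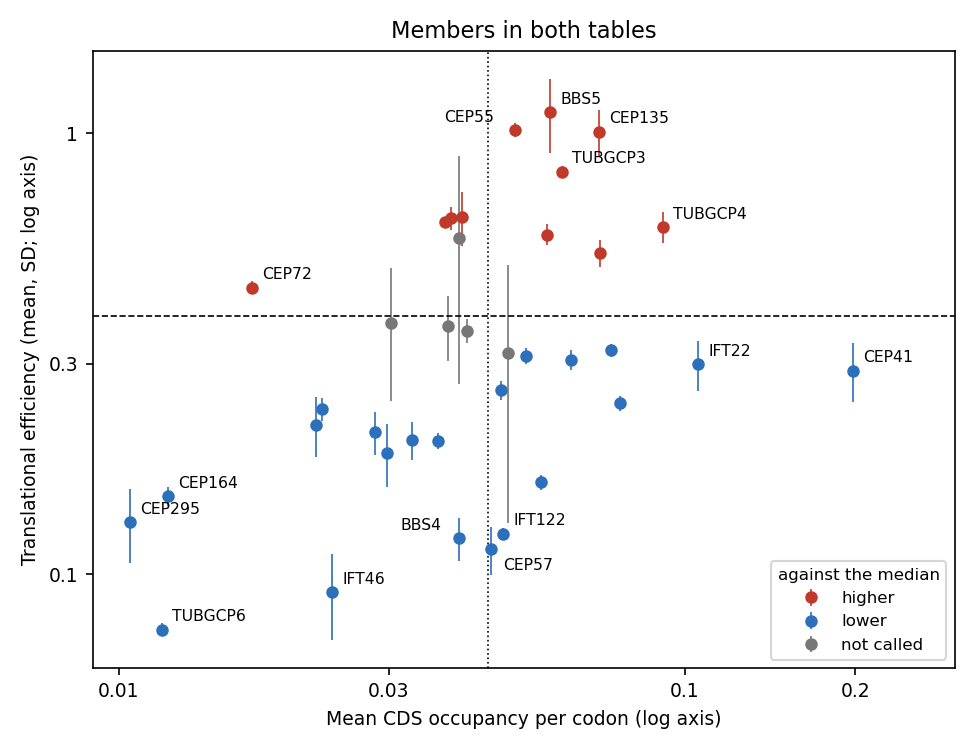
TE (mean with SD over 3 replicates) against mean CDS occupancy per codon for the members in both tables, 1 left out, both on log axes and coloured by the TE call, with the medians of all genes as lines. CEP41 and IFT22 lie far right below the TE median, and TUBGCP6, CEP295 and CEP164 lie low on both axes.

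Along the coding sequence, occupancy of the members was shifted towards the start codon. The occupancy of the first 75 codons was above that of the last 75 in 39 of 50 members with a CDS of 150 codons or more (78%), where 49.3% of 8851 such transcripts had it so. The median ratio of the windows was 1.39, with quartiles of 1.07 and 2.06, against 0.991 over all transcripts. All 3 libraries of a gene had the first window above the last in 30 of the 39, and below it in 9 of the other 11.

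Transcripts of like CDS length lay nearer to all transcripts in these windows. Over 3325 transcripts with a CDS between the members' quartiles the first window was above the last in 51.2%, with a median ratio of 1.03. Kinesins, dyneins and dynactin, which are as long, had 20 of 37 with a median ratio of 1.06. With windows of 50 codons 31 of the 50 members (62%) had the first window above the last, where 47.5% of all transcripts had it so. Without the first 15 and last 5 codons 36 members (72%) did, where 51.9% of all transcripts did, and in that setting these motor genes were close to the members, with 26 of 37 (70.3%). When the CDS was cut into 10 equal segments and each divided by the mean of the CDS, the members' median was 1.08 in the first segment and 0.784 in the last, against 0.802 and 0.853 over all transcripts. The members' quartiles in the first segment were 0.805 and 1.38. Cycloheximide was added before lysis, and its part in the profile of these or other mRNAs was not tested.

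**Figure D4:**
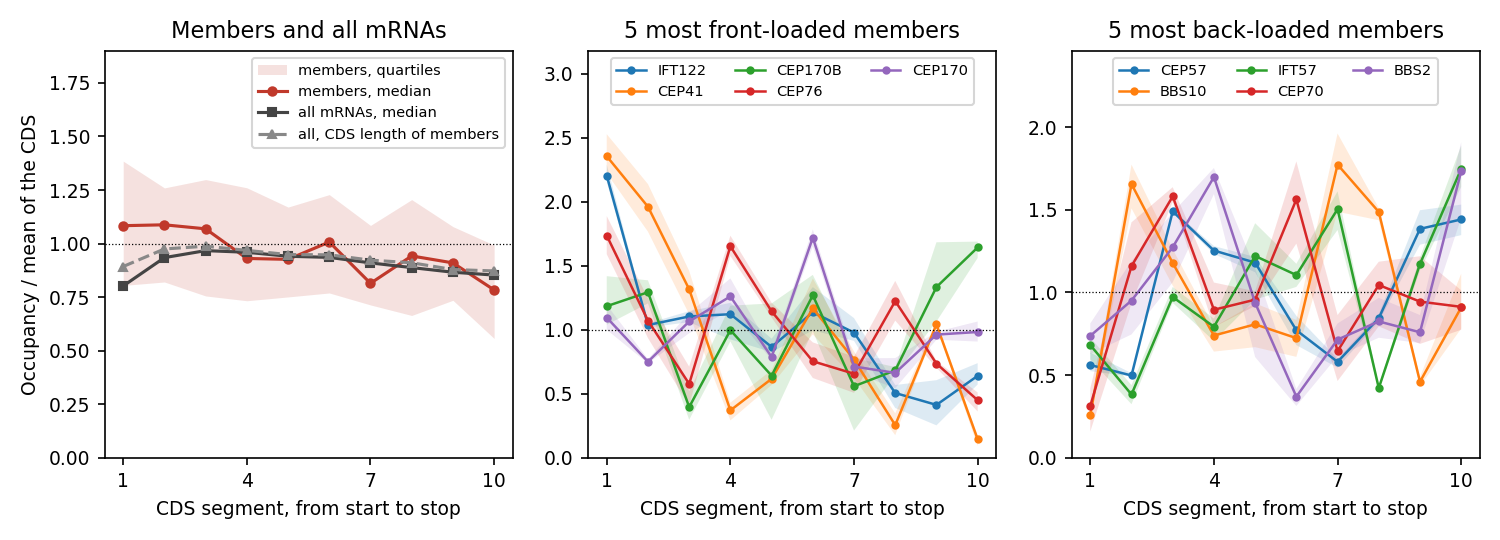
Occupancy in 10 equal segments of the CDS divided by the mean of the CDS, for the median of the members (quartiles as a band), of all mRNAs and of mRNAs of like CDS length (left), and for the 5 members with the highest (middle) and lowest (right) ratio of the first to the last 75 codons, with bands for the range of the 3 libraries. The members' median is above that of all mRNAs in segments 1, 2, 3, 6, 8 and 9, with the widest gap in the first, and single members have peaks and troughs that recur in the 3 libraries.

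IFT122 was the most front-loaded, with a ratio of 8.70 and of 7.82, 7.56 and 11.6 in the 3 libraries. CEP41 had 3.6, and its last segment held 0.144 of the mean occupancy. CEP76, which limits centriole duplication to once per cycle, had 3.44. In these 3 the first segment was the highest of the 10. CEP170B at 3.53 and CEP170 at 3.36, proteins of the subdistal appendages, had 1.64 and 0.983 times the mean in the last segment, so their whole profiles did not decline in the same way. With windows of 50 codons their ratios were 3.55 and 2.21, and without the first 15 and last 5 codons 1.95 and 4.41.

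CEP57 was the most back-loaded, with a ratio of 0.270 and of 0.246, 0.326 and 0.251 in the 3 libraries. BBS10 had 0.291, IFT57 0.318 and CEP70, a gamma-tubulin-binding centrosome protein, 0.323. BBS2 had 0.426, and all 3 libraries of these 5 were below 1. The first segment of BBS10 held 0.259 of its mean occupancy and that of CEP70 held 0.314. In TE, BBS10 and IFT57 were called higher and CEP57 and BBS2 lower, whereas the 3 of the 5 front-loaded members with a TE, IFT122, CEP41 and CEP76, were called lower. CEP70, CEP170B and CEP170 have no TE, and a relation of TE to the shape was not tested.

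The highest codon held a median of 2.93% of the CDS occupancy in the members, 2.99% in kinesins, dyneins and dynactin, 3.54% in transcripts of like length and 4.95% over all. The 6 members with the largest share are shown with 12 bases on each side of that codon, which is in capitals and is the codon to which the authors' offset placed the reads.
IFT20: gaagcagaacaaAATgaatttattgac
BBS7: cgcgtagtcatcATGgatctgatttta
IFT27: ctcgtctatgatGTGaccaatgaagaa
IFT22: ccaacccaaggaGTGaggatcctagaa
IFT43: ctggacaatgacCTCatgaagtactca
CEP41: aaatcaagactgGACactggtaacagt

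In IFT20, which links trains to the Golgi, codon 122 of 133, at chr17:26655711-26655713 on the minus strand in the last exon, held 13.6% of the occupancy. In the 3 libraries it held 15.2, 15.5 and 9.68% of the reads. In IFT27 codon 91, at chr22:37160042-37160044 on the minus strand, held 10.7%, with 8.90, 13.9 and 9.52% in the libraries. These peaks stood in all 3 libraries, and both coding sequences are short, so a codon takes a larger share.

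BBS7 was the only 1 of the 51 members whose highest codon was the start codon, at chr4:122791466-122791468 on the minus strand, as it was in 2.42% of all transcripts. That codon held 11.9% of the occupancy of 673 codons and 12.1, 11 and 12.7% of the reads in the libraries. Its window ratio of 3.30 fell to 1.87 without the first 15 and last 5 codons. IFT22 held 7.87% at codon 38 (chr7:100962239-100962241, minus strand), IFT43 6.96% at codon 139 (chr14:76549006-76549008, plus strand) and CEP41 6.48% at codon 31 (chr7:130067800-130067802, minus strand). The 6 capitalised codons are 5 different triplets, since IFT27 and IFT22 share theirs.

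In-frame reads in the 5′UTR of the members came to 1707, 1.34% of their reads, against an estimated 1.12% over all transcripts. TUBGCP2 and BBS4 held 36.6% of them. Of the 1707 reads, 773 (45.3%) lay at codons that are within the CDS of another annotated isoform of the same gene. A further 157 lay beyond the 5′UTR of the matched GENCODE transcript and 41 in CEP19, which had no match. The remaining 736 lay in 5′UTR that is in no other isoform's CDS. These reads are of the CDS frame only, so ribosomes in other frames are not in these counts.

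**Figure D5:**
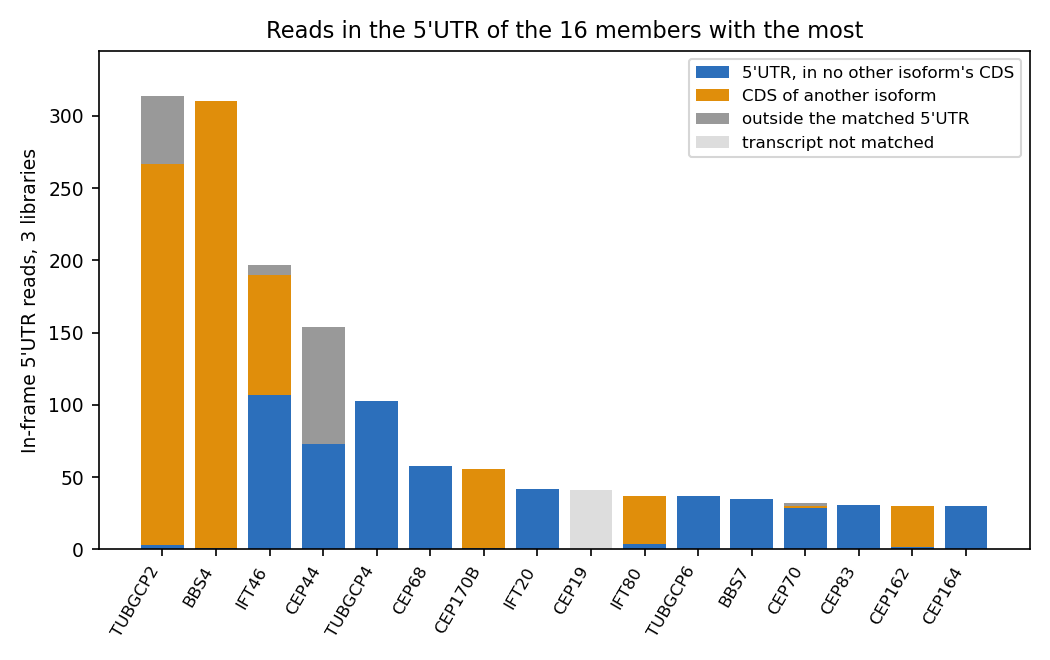
In-frame 5′UTR reads summed over the 3 libraries for the 16 members with the most, split by what the codon is in other annotated isoforms. Nearly all reads of BBS4, CEP170B and CEP162 and most of TUBGCP2 and IFT80 lie in the CDS of another isoform, whereas those of TUBGCP4, CEP68, IFT20 and BBS7 do not.

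In BBS4 309 of 310 reads lay in another isoform's CDS, and the 5′UTR held 21.8% of all its reads. The libraries held 141, 96 and 73 of them. In TUBGCP2 264 of 314 did, and in CEP170B 55 of 56. For these genes the start codon of the table's transcript lies downstream of coding sequence that other isoforms use. Their 5′UTR values thus cannot be told apart from translation of the longer isoform. IFT46 had 197, of which 83 lay in another CDS, with 49 at codon −35 counted back from the start codon. A further 107 of its reads lay in no other isoform's CDS. Of these 27 stood at codon −72 (15, 6 and 6 in the libraries) and 23 at codon −74 (12, 4 and 7).

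TUBGCP4 had 103 reads in a 5′UTR that no other isoform codes. Of these 39 lay at codon −44 (14, 11 and 14 in the libraries) and 34 at codon −43 (12, 10 and 12). CEP68 had 58, with 17 at codon −27 and 15 at codon −26. IFT20 had 42, with 16 at codon −22. In these genes a few codons carried much of the signal in all 3 libraries.

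CEP70 had 32 reads in the 5′UTR, and 27 of them lay in a short upstream reading frame of 7 codons and a stop codon. Its sequence is shown because start, stop and reads fall together, with its ATG and its stop codon in capitals.
CEP70 upstream frame: ATGaagatccagtttcagacaTGA

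The ATG lies at codon −36, chr3:138310796-138310798 on the minus strand in exon 2, in frame with the CDS but closed by the stop at codon −29. The libraries held 7, 13 and 7 of these reads, and 26 lay in the first 4 codons. CEP70 was chosen after its reads were seen, and its CDS held 772 reads. It is absent from the TE table.

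Close to the start codon the median in-frame signal of the members was above that of all transcripts, but from few reads. The whole 5′UTR of a member held a median of 7 in-frame reads. Each read also adds more occupancy where the mRNA is scarce, and the members' median mRNA level was 0.681 of the median of all transcripts. The part of mRNA level in the difference was not tested. Over the 17 codons of 5′UTR next to the start codon the median occupancy was 0.00232 per codon against 0.00108 over all transcripts, and 12 of 51 members had none there (23.5%), where 36.3% of all transcripts had none. Without the 5 codons next to the start codon the members' median was 0.00114, against 0.000197 over the 9365 transcripts with such codons. In that setting it was 0.000579 in kinesins, dyneins and dynactin, 0.000767 in tubulin genes and 0 in transcripts of like CDS length. The 5 highest were CEP19 at 0.0356, CEP170B at 0.0255, CEP41 at 0.0182, CEP68 at 0.0172 and CEP162 at 0.0165. They rest on 17, 16, 6, 14 and 8 reads in all. With so few reads the order among these 5 could not be resolved at this depth. Of these 5, CEP19 and CEP170B had a higher level there than in their own CDS, which had 0.0303 and 0.00578. Outside these 5, CEP164 did so too, at 0.0146 against 0.0122 in its CDS. It had 19 reads there (14, 3 and 2 in the libraries), and all 30 of its 5′UTR reads lay in no other isoform's CDS. Over the whole 5′UTR 55 of 56 reads of CEP170B and 28 of 30 of CEP162 lay in another isoform's CDS. The values of these genes cannot be told apart from translation of that isoform. CEP19 had no matched transcript, so its 41 reads could not be sorted in this way.

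Reads in the 3′UTR were rare, 258 in all or 0.203% of the members' reads, against an estimated 0.344% over all transcripts. None were counted in 33 of 51 members, and BBS5 and CEP97 held 63.6% of them. The first 10 codons after the stop codon held 0 reads over all members. BBS5 had 126 (50, 52 and 24 in the libraries), with the most, 27, at codon 334 of the 3′UTR and 15 at codon 361. Its 3′UTR occupancy was 10.7% of that of the CDS. CEP97 had 38, of which 31 stood at codon 1346. The 3′UTR occupancy of CEP126 was 7.68% of that of its CDS, from 13 reads, that of CEP70 was 2.05% from 2 and that of CEP170B was 0.738% from 1. In GENCODE an unnamed protein-coding gene spans the BBS5 locus, shares its exons and runs past its end. Overlapping unnamed genes also share coding sequence with BBS2 and IFT80, and their part in the values of these 3 genes was not tested.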

How the data were processed

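The authors trimmed RPF reads with Cutadapt, removed PCR duplicates, set aside rRNA and tRNA reads and placed reads of 28 to 30 nt on the hg19 transcriptome with bowtie, shifted by 13 nt. For total RNA they used Hisat2 and HTseq-count and kept the most abundant transcript of a gene. The submitters' processing notes list cutadapt 1.16, Bowtie 1.1.2, TopHat2 2.1.1 and HTSeq 0.9.1. The deposited TE is a linear ratio per replicate, and no source used here gives its formula. The deposited occupancy combines the replicates, so it has no error.

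Each gene's log2(TE ratio + 0.01) was compared by limma (version 3.58.1, R 4.3.3; two-sided) with the median of all 8121 genes, with Benjamini-Hochberg adjustment over all of them at 0.05 and no filter. RPFs and total RNA with 1 replicate number share a lysate, so the pairing is part of the ratio, and replicates correlated at 0.987 to 0.990 over genes (Pearson, log2 scale). Scripts were first tested on simulated data.

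Whole reads were recovered from the low occupancy values at a relative tolerance of 1e-08 in 9546 of 9570 transcripts, a step chosen after seeing the data. Read totals over all transcripts are estimates. In 31 transcripts, none of them members, a list broken over lines was rejoined and 30 damaged codons were set to missing. GENCODE 44 on GRCh37, the build of hg19, matched 9136 transcripts and 50 of 51 members by symbol or unique RefSeq synonym and CDS length. RefSeq and GENCODE 5′UTRs can differ in length. Shared sequence was counted in CDS 30-mers found in genes at other loci. Scripts ran in Python 3.11.15 with numba 0.67.0, numpy 2.4.6, scipy 1.17.1 and pandas 2.3.3.

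Members and lists were chosen with earlier results of these data known. Named were the 5 highest and 5 lowest members in TE, the highest and lowest of each family, all members of families of 8 or fewer, the 5 extreme members in each occupancy measure, members in 1 table only, and the highest and lowest of each other list. IFT27, IFT81, IFT88, IFT172, CEP97 and CEP152 were named after their TE was seen. The values of 1 member and the sequence at 1 start codon are not reported here. Alternatives changed the pseudocount, centre, filter, prior variance, replicates, windows and codons left out.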

Additional observations from a re-analysis of the deposited data

How the results depend on the processing

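Members called lower in TE numbered 29, with a range of 27 to 30 over the settings tried, and members called higher 11, with a range of 10 to 11. Leaving out each replicate in turn gave 27 to 30 lower and 11 higher, and a median TE of the members from 0.281 to 0.298. Under the replicate block, with each replicate centred on its own median, 29 were lower and 11 higher with a median of 0.292, and no call changed. Of the 45 members 38 kept their call under all alternatives, 3 lost it, CEP72 and IFT74 among them, and 4 gained 1 (CEP162, CEP19, IFT172 and CEP290). Without 1 replicate the log2 difference of CEP19 from the median ran from -0.33 without replicate 3, where it was called lower, to 0.11 without replicate 1, uncalled. That of IFT27 ran from -0.16 without replicate 1 to 0.0711 without replicate 3, uncalled in each, and the cause was not tested. Over the 17 codons of 5′UTR next to the start codon the median occupancy moved from 0.00232 to 0.00114 when the nearest 5 were left out, which by construction drops the reads there. The other medians moved by less than the SD of 3 medians. Each of these is over the libraries of 1 rank in the worth of a read within a gene, which are not single libraries. Members sharing 5% or more of their CDS 30-mers with another locus, CEP170 and IFT122, were left out in an alternative chosen after seeing the data, which gave 28 lower and a window ratio of 1.38. Few reads limit the 5′UTR and 3′UTR values, where many members have under 10, and PCR or mapping errors are not in the counts.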
